A study of Mus musculus with 21 samples.

Results

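Expression of 8 genes of mouse CD4+ T cells that are not among the best known activation genes was followed across antigen dose and time: Atp2b4, Crybg1, Dap, Glipr2, Glrx, Gm14005, Cxxc5 and Gm42778. They are 8 of the 34 genes, out of 15300 with at least 10 counts, whose RNA differed between the high and the low dose of antigen in the same direction at 4 h, 12 h and 24 h. Each of these 34 genes had an adjusted p under 0.05 and a shrunken log2 fold change beyond 1 at each time, and they comprise 22 higher and 12 lower with the high dose. They were chosen by the shrunken log2 fold change and adjusted p of 80 µg against 0.8 µg at the 3 times. Of the 8 genes, 6 were higher with the high dose (Atp2b4, Crybg1, Dap, Glipr2, Glrx and Gm14005) and 2 were lower (Cxxc5 and Gm42778). All 8 passed the filter on low counts. Because the difference between doses chose these genes, it is given as a description with no test. Across all genes tested, 5.55% were called between doses at 4 h (2.95% higher and 2.6% lower with the high dose), 2.73% at 12 h (1.8% and 0.926%) and 1.46% at 24 h (0.802% and 0.654%).

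The libraries came from Tg4 Nr4a3-Tocky Tiger mice, with 3 mice in each of 7 groups. Tg4 T cells carry a transgenic receptor for a myelin basic protein (MBP) peptide, Nr4a3-Tocky cells make a Timer protein under the control of Nr4a3 that is blue when new and red when mature, and the Tiger allele reports Il10 with GFP. Mice of all 7 groups carried these alleles, both sexes were used, and ages were not given in the sources used here. The control group was not immunised, and each other group received the [4Y] form of the MBP peptide under the skin without adjuvant, either 0.8 µg, the low dose, or 80 µg, the high dose. Spleens were taken 4 h, 12 h or 24 h later. CD4+ T cells were sorted on the Timer protein. The gate was Blue+Red- for the 4 h groups, Blue+Red+ for those at 12 h, and Blue-Red+ for the last time, and time and sorting gate cannot be told apart. RNA was counted at the 3′ ends of transcripts, with 2352800 to 6244279 counts per library. In sorted populations of this kind, fewer cells that express a gene and less RNA per cell cannot be told apart. Of the labelled cell type, all 6 marker genes of CD4+ T cells were measured in every group, with a summed level of 695 to 2350 CPM (counts scaled to the library total), while the summed level of 3 natural killer cell genes was at most 4.49 CPM, that of 5 B cell genes up to 396 CPM and that of 4 erythroid and platelet genes up to 155 CPM.

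A T cell receptor that binds its antigen raises calcium in the cell, which activates the transcription factor NFAT and with it genes such as Nr4a3. Resting T cells change from a quiescent to a growing state within hours, and in doing so they remodel their calcium transport, their redox enzymes, autophagy and the machinery of survival. The proteins made by these genes act in several of these processes. Atp2b4 encodes a plasma membrane pump that exports calcium, and Glrx encodes glutaredoxin, which removes glutathione from protein thiols. Dap encodes a small protein that restrains autophagy, and Glipr2 encodes a Golgi-associated protein of the CAP superfamily that binds the autophagy protein Beclin 1. Crybg1 encodes a protein with beta-gamma crystallin domains outside the lens, and Cxxc5 a CXXC zinc finger protein that binds unmethylated CpG and restrains Wnt signalling. Gm14005 is a long intergenic noncoding RNA whose RefSeq symbol is Morrbid, known as a regulator of the adjacent gene Bcl2l11, which encodes the pro-apoptotic protein BIM. Gm42778 is an unspliced transcript of unknown function.

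The sequences before a RefSeq start of 3 of these genes are shown because Dap and Glrx followed a similar course through the experiment and Gm14005 a different one. RefSeq (GRCm38.p6) held 9 start site entries for 6 of the 8 genes. Each stretch runs 5′ to 3′ on the strand of the gene, begins 250 bases before the RefSeq start and ends before the first annotated exon. Capitals mark a match to TGANTCA, a letter pattern of AP-1 sites.
Dap: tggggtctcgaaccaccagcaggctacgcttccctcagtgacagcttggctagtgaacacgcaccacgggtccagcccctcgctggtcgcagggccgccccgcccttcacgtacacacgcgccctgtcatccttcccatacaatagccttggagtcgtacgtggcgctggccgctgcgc
Glrx: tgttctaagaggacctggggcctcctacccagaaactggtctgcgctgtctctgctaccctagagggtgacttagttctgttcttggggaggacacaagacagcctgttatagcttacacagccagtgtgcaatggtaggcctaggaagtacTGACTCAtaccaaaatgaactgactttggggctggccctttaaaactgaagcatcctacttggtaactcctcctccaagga
Gm14005: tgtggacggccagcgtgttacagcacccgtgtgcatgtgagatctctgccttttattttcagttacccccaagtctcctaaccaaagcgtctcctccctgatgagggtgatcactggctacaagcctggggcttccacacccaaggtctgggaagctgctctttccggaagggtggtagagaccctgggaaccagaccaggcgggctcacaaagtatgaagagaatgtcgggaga
These stretches lie at chr15:31224135-31224313 on the + strand, chr13:75839635-75839867 on the + strand and chr2:128429367-128429601 on the - strand. The Gm14005 stretch lies inside the span that GENCODE gives the gene, since the RefSeq start used is downstream of the 5′ end in GENCODE. Over the full 250 bases, the Dap entry held 67.6% G or C and 25 CpG, the Glrx entry 48.8% and 1 CpG, and the Gm14005 entry 55.6% and 7 CpG, beside medians of 52.4% and 6 over all promoters of this length. The Glipr2 window, at 69.2% G or C with 20 CpG, was like that of Dap in composition. That window begins inside an annotated exon of Glipr2, so it is not all sequence before the gene and none of it could be shown. TGANTCA and TGGAAA, the core of NFAT sites, were searched on both strands. TGANTCA was found in both Glrx entries, which overlap, and in 6.73% of 32536 promoters. TGGAAA was found in 1 of 3 Crybg1 entries and in 18.6% of promoters. A match is a description of letters, and these letters overlapped no other match.

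The difference between doses was largest for Crybg1 at 4 h and smallest for Dap at 24 h. Values below are normalised counts, that is counts divided by the DESeq2 size factor of the library, in replicates 1, 2 and 3. Crybg1 was at 160, 155 and 196 in the control group. The low dose libraries held 20.2, 6.59 and 10.8 at 4 h, then 88.2, 78.2 and 52.8, and finally 96.4, 106 and 98.1. The high dose libraries held 498, 279 and 526 at 4 h, then 249, 251 and 185, and finally 285, 247 and 296. Every low dose library was therefore below every control library, and at 4 h and 24 h every high dose library was above them. Of all genes, 0.248% at 4 h and 0.294% at 24 h had the doses on these sides of all controls. As the dose difference chose Crybg1, nothing is read from these shares. The share with the low dose below the controls at all 3 times was not counted. The means with 80 µg were 34.7 times those with 0.8 µg at 4 h, 3.12 times at 12 h and 2.75 times at 24 h. On the shrunken log2 scale these differences were 4.92 ± 0.31 (SE), 1.61 ± 0.23 and 1.44 ± 0.22. In the order of the group means, the control group lay between the doses, and the ranges of neighbouring groups overlapped only among the 3 high dose groups and the control. Crybg1 lies at chr10:43950636-44148853 on the - strand, and exons of it overlap exons of Rtn4ip1 and Gm10812 on the opposite strand. The strand setting of the authors' counting is not stated. Rtn4ip1, a mitochondrial protein gene named for this overlap, was not called between doses at any time (log2 differences of 0.16, 0.54 and 0.46, DESeq2 adjusted p = 0.886, 0.451 and 0.605).

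Atp2b4 took a similar position at 12 h. The calcium pump gene was at 62.9, 46.6 and 37.1 normalised counts in the control group. Low dose values were 4.04, 11.9 and 4.32 (4 h), 24.5, 33.1 and 15.3 (12 h) and 44.8, 53.2 and 85.7 (24 h). High dose values were 69.4, 44.6 and 97.7 (4 h), 153, 161 and 133 (12 h) and 258, 210 and 264 (24 h). The low dose libraries were below all controls at 4 h and 12 h and overlapped them at 24 h, whereas the high dose libraries overlapped the controls at 4 h and were above them at 12 h and 24 h. Of all genes, 0.118% had every high dose library above and every low dose library below all controls at 12 h. As the dose difference chose Atp2b4, nothing is read from this share. The ratio of the high to the low dose was 10.5 at 4 h, 6.13 at 12 h and 3.98 at 24 h (shrunken log2 differences of 3.23 ± 0.41, 2.52 ± 0.31 and 1.96 ± 0.29, SE). The means of the 80 µg group at 4 h, the 0.8 µg group at 24 h and the control group were 70.6, 61.2 and 48.9, and neighbours among these did not differ beyond their SD. Atp2b4 lies at chr1:133699457-133801041 on the - strand, and an exon of it overlaps Mir6903 on the same strand.

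Dap, Glipr2 and Glrx shared a course in which both doses lay below the control group at 4 h and the high dose lay above it at 24 h. Of all genes, 5.16% had every high dose library below the controls at 4 h and above them at 24 h, and 3.94% had this for the low dose, as Glrx did. Dap was at 152, 133 and 124 normalised counts in the control group. In the low dose libraries the counts were 12.1, 15.8 and 2.16 at 4 h, 20.6, 22.6 and 15.3 at 12 h, and 138, 128 and 155 at 24 h. In the high dose libraries the counts were 32.4, 26.1 and 20.6 at 4 h, 60.3, 74.8 and 52.5 at 12 h, and 284, 289 and 296 at 24 h. At 4 h and 12 h every immunised library was below every control, and at 24 h the low dose overlapped the controls while the high dose was above them. The share of all genes below the controls with both doses at both times was not counted. The high to low dose ratio was 2.63, 3.21 and 2.07 in order of time (shrunken log2 differences of 1.32 ± 0.35, 1.63 ± 0.26 and 1.04 ± 0.19, SE). The value at 24 h was the closest to the threshold of 1 among the 8 genes, followed by Glrx at 1.06. Just outside it lay Nrn1, Srgn and Itm2a, whose smallest absolute differences were 0.994, 0.981 and 0.979. Dap lies at chr15:31224314-31274341 on the + strand.

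Glipr2 had the lowest relative level at 4 h among these 3 genes. It was at 121, 90.3 and 123 normalised counts in the control group. For the low dose the values were 2.02, 3.95 and 0, then 23.5, 15.8 and 7.04 and later 74, 68.1 and 102, in the order 4 h, 12 h and 24 h. For the high dose the values were 9.26, 20.3 and 30, then 85, 112 and 60.3 and later 328, 332 and 280, in the same order. The 5 raw counts of the 3 low dose libraries at 4 h put their mean 55.9 times below that of the control group, while the high dose was 5.6 times below it. By 24 h the high dose mean was 2.82 times that of the control group, and the low dose, at 0.732 times, overlapped it. The high to low dose ratio was 9.98, 5.54 and 3.85 (shrunken log2 differences of 2.77 ± 0.53, 2.37 ± 0.33 and 1.91 ± 0.28, SE). Glipr2 lies at chr4:43957401-43979118 on the + strand.

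Glrx was the gene of these 3 for which both doses passed the controls by 24 h. It was at 60.8, 37.5 and 75.7 normalised counts in the control group. The low dose libraries held 0, 3.95 and 4.32 at 4 h, then 12.7, 12.8 and 7.04, and finally 117, 149 and 103. The high dose libraries held 31.3, 28.1 and 18.9 at 4 h, then 32, 16.1 and 30.1, and finally 264, 274 and 242. The high dose groups at 4 h and 12 h had the same mean of 26.1, whereas the low dose mean was 2.76 at 4 h and 10.9 at 12 h. The high to low dose ratio was accordingly 9.46 at 4 h, 2.4 at 12 h and 2.11 at 24 h (shrunken log2 differences of 2.83 ± 0.5, 1.15 ± 0.36 and 1.06 ± 0.26, SE). Glrx lies at chr13:75839868-75850154 on the + strand.

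**Figure D1:**
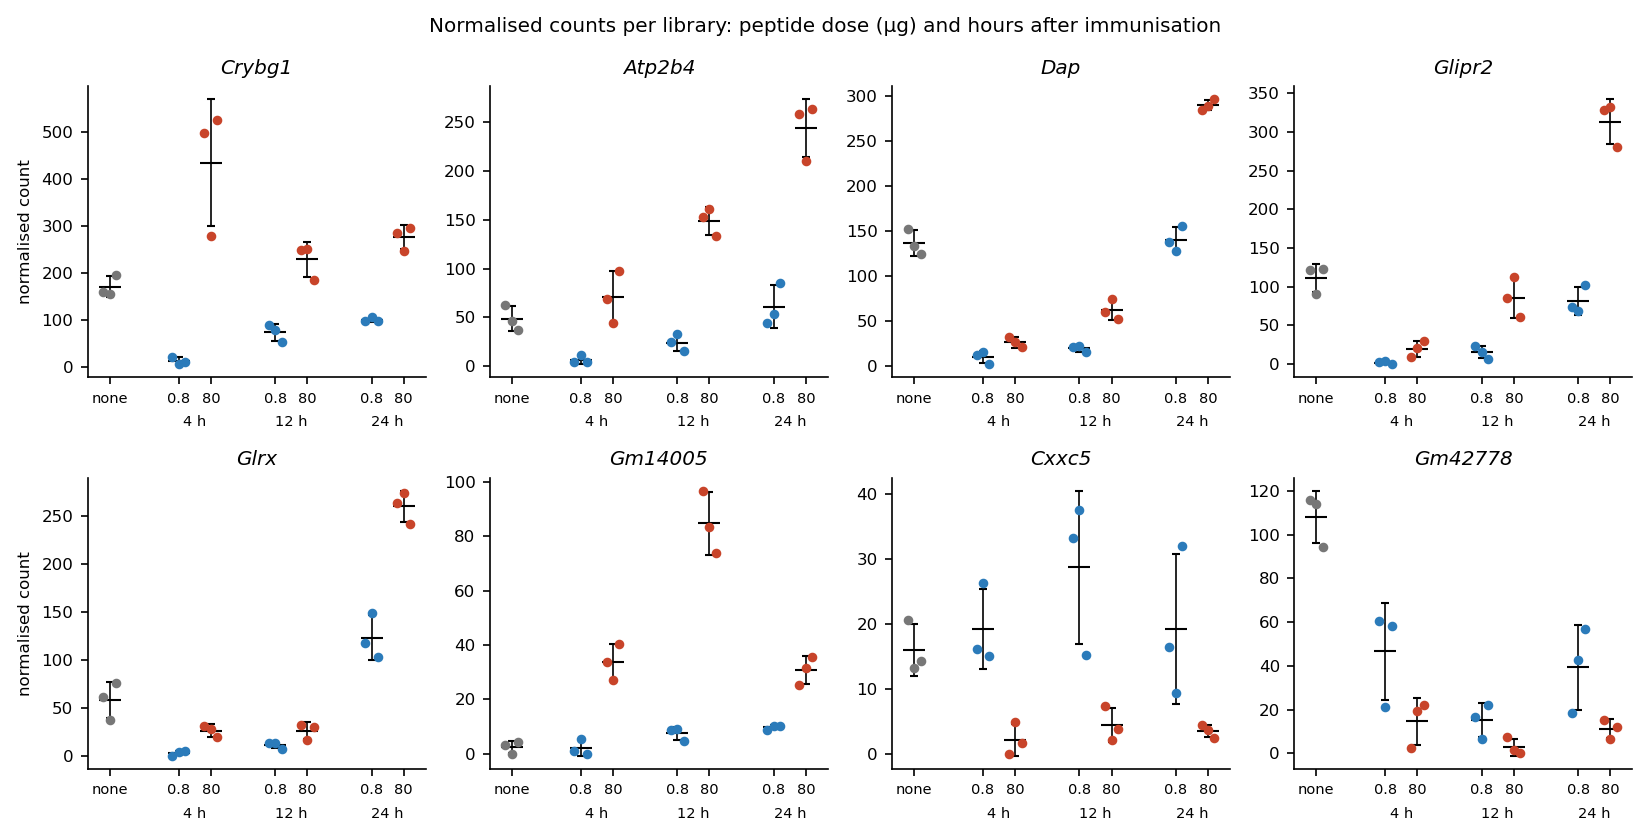
Normalised counts of the 8 genes in each library (points; grey control, blue 0.8 µg, red 80 µg of peptide), with the group mean (horizontal line) and SD (bar, n = 3), against dose in µg and hours after immunisation. Crybg1 at 4 h and 24 h and Atp2b4 at 12 h had doses on opposite sides of the control, Dap, Glipr2 and Glrx were lowest with 0.8 µg at 4 h and highest with 80 µg at 24 h, and Gm14005 was highest with 80 µg at 12 h.

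Gm14005 was nearly absent in the control group. It was at 3.09, 0 and 4.28 normalised counts in the control group, from 6 raw counts in all. Low dose values were 1.01, 5.27 and 0 (4 h), 8.82, 9.03 and 4.7 (12 h) and 8.76, 10.3 and 10.3 (24 h). The high dose libraries held 33.6, 27.1 and 40.3 at 4 h, then 96.8, 83.6 and 73.9, and finally 25.2, 31.6 and 35.7. All 9 high dose libraries were thus above all low dose and control libraries, with the highest values at 12 h. The dose difference chose the gene and the share of all genes with this pattern was not counted, so nothing is read from it. The low dose overlapped the controls at 4 h and lay above all of them at 12 h and 24 h. The high to low dose ratio was 16.1, 11.3 and 3.16 (shrunken log2 differences of 3.63 ± 0.57, 3.34 ± 0.41 and 1.61 ± 0.41, SE). The gene spans chr2:128178319-128502765 on the - strand, and exons of it overlap exons of Gm14009 on the opposite strand and Gm14012 on the same strand.

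Both genes that were lower with the high dose had few counts in those libraries. Cxxc5 was at 20.6, 13.2 and 14.3 normalised counts in the control group. In the low dose libraries the counts were 16.2, 26.3 and 15.1 at 4 h, 33.3, 37.6 and 15.3 at 12 h, and 16.5, 9.32 and 32 at 24 h. High dose values were 0, 4.84 and 1.71 (4 h), 7.31, 2.2 and 3.89 (12 h) and 4.38, 3.68 and 2.47 (24 h). The low dose overlapped the controls at each time, and the high dose lay below all controls and all low dose libraries at each time. How many of all genes share this pattern was not counted, and nothing is read from it, as the dose difference chose Cxxc5. The low dose mean was 8.78, 6.43 and 5.5 times the high dose mean in order of time (shrunken log2 differences of -2.64 ± 0.64, -2.48 ± 0.58 and -2.22 ± 0.59, SE). In the order of means, neighbours among the 3 low dose groups and the control did not differ by more than the SD, nor did neighbours among the 3 high dose groups, whereas the control and the highest of the high dose groups did. Cxxc5 lies on chromosome 18 at 35829397 to 35861688 on the + strand, and exons of it overlap those of AC141471.2 on the same strand and Gm29417 on the opposite strand.

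Gm42778 was below the control group after either dose. It was at 116, 114 and 94.2 normalised counts in the control group. For the low dose the values were 60.6, 21.1 and 58.3, then 16.7, 6.77 and 22.3 and later 18.5, 42.9 and 56.8, in the order 4 h, 12 h and 24 h. In the high dose libraries the counts were 2.31, 19.4 and 22.3 at 4 h, 7.31, 1.47 and 0 at 12 h, and 15.3, 6.62 and 12.3 at 24 h. It was the single gene of the 8 for which the doses overlapped, which they did at 4 h and at 12 h. Across all genes tested, the share whose 3 high dose libraries all lay below the 3 low dose libraries was 14.8% at 4 h, 8.17% at 12 h and 8.88% at 24 h, and the share above was 13.1%, 10.7% and 12.7%. The low dose mean was 3.18, 5.21 and 3.45 times the high dose mean (shrunken log2 differences of -1.53 ± 0.53, -1.99 ± 0.61 and -1.66 ± 0.53, SE). Gm42778 is a single exon of 553 bases at chr5:110978665-110979217 on the + strand, annotated as TEC, a class of transcripts that await experimental evidence, and lies within Ttc28 on the same strand outside its exons. Reads from unspliced Ttc28 RNA and from Gm42778 cannot be told apart there.

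The contrast of both doses together with the control group asked how each gene responded to antigen at all. It shares its 0.8 and 80 µg libraries with the difference that chose the genes. A dose that leaves the control makes a dose difference and also moves this average. For Cxxc5 at 4 h the log2 ratio to the control mean was 0.26 with 0.8 µg and -2.87 with 80 µg. The Timer gate of the control group is not given in the sources used here, so antigen and sorting gate cannot be told apart in this contrast. Because of the shared libraries, nothing is read from the numbers of the 8 genes called at 4 h, 12 h and 24 h or between times. At 4 h, 8 of 8 genes were called, beside 43.1% of all genes tested. Of these, 7 were lower than in the control group, beside 25.6% of all genes, and Gm14005 was higher, beside 17.5%. The largest falls were in Glipr2 (log2 change of -3.76 ± 0.34, SE, DESeq2 adjusted p = 5.68e-23), Dap (-3.02 ± 0.23, adjusted p = 7.61e-39) and Glrx (-2.54 ± 0.33, adjusted p = 4.69e-13). Gm42778 fell by 1.9 (SE 0.44, adjusted p = 5.21e-05). The contrast averages the doses on the log scale, so that a gene with doses on opposite sides of the control can be called. This was the case for Crybg1 (-1.12 ± 0.22, DESeq2 adjusted p = 7.9e-07), whose high dose libraries were all above the controls. Atp2b4 was also called (-1.1 ± 0.3, DESeq2 adjusted p = 0.000393), with high dose libraries that overlapped the controls. Leaving out 1 library put Atp2b4 under the fold threshold in 4 of 21 fits and Crybg1 in 2. Cxxc5 (-1.09 ± 0.5, adjusted p = 0.0413) and Gm14005 (1.64 ± 0.56, adjusted p = 0.0231) were called with less margin. The Cxxc5 call was lost in 9 of the 21 fits that left out 1 library, with adjusted p from 0.05 to 0.177. It was also lost with a block for replicate number (-1.08, DESeq2 adjusted p = 0.0558). The Gm14005 call was lost without control replicate 2 (1.05, adjusted p = 0.185) and without 0.8 µg 4 h replicate 2 (1.35, adjusted p = 0.446). Separately, the share of all genes whose 3 libraries lay above every control was 25.6% and 26.3% for the low and high dose at 4 h, 24.5% and 25.7% at 12 h, and 22% and 23.5% at 24 h, and the share below was 29.9% and 31%, 28.8% and 29.2%, and 19.3% and 20.7%.

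At 12 h, 5 of the 8 genes were called against the control, beside 38.1% of all genes. Gm14005 had risen (3.09 ± 0.53, SE, DESeq2 adjusted p = 5.64e-07), beside 17.1%, and 4 genes were lower, beside 21% of all genes. These were Gm42778 (-3.65 ± 0.47, adjusted p = 7.21e-14), Dap (-1.92 ± 0.19, adjusted p = 4.99e-22), Glrx (-1.7 ± 0.28, adjusted p = 2.9e-09) and Glipr2 (-1.55 ± 0.26, adjusted p = 9.93e-09). At 24 h, 4 genes were called, beside 18.8% of all genes. Gm14005 (2.54 ± 0.53, DESeq2 adjusted p = 5.21e-05), Glrx (1.62 ± 0.25, adjusted p = 6.04e-10) and Atp2b4 (1.28 ± 0.26, adjusted p = 8.47e-06) were higher, and Gm42778 (-2.2 ± 0.44, adjusted p = 4.96e-06) was lower, beside 11.7% and 7.14% of all genes. Crybg1 had a value of -0.03 ± 0.19 at that time (DESeq2 adjusted p = 0.929), with its doses on opposite sides of the controls. The same 24 h contrast gave 0.56 ± 0.17 for Dap (DESeq2 adjusted p = 0.00418) and 0.52 ± 0.24 for Glipr2 (adjusted p = 0.0779), neither of them called.

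The course over time was compared over both doses, with the gate changing between times. From 4 h to 12 h, 5 genes were called, beside 23.2% of all genes tested, of which 4 rose and 1 fell, beside 14.6% and 8.65%. Glipr2 rose by 2.22 ± 0.31 (SE, DESeq2 adjusted p = 7.98e-10), Gm14005 by 1.45 ± 0.35 (adjusted p = 0.000272), Atp2b4 by 1.41 ± 0.26 (adjusted p = 2.5e-07) and Dap by 1.1 ± 0.22 (adjusted p = 2.36e-06), and Gm42778 fell by 1.75 (SE 0.4, adjusted p = 5.79e-05). From 12 h to 24 h, 4 genes were called, beside 28.6% of all genes. All 4 rose, beside 18.5%, and none of the 8 fell, beside 10.2% (0 also at an unadjusted p under 0.05 and with edgeR). Glrx rose most (3.32 ± 0.22, DESeq2 adjusted p = 2.43e-47), followed by Dap (2.48 ± 0.16, adjusted p = 1.27e-50), Glipr2 (2.06 ± 0.22, adjusted p = 1.39e-20) and Gm42778 (1.46 ± 0.41, adjusted p = 0.000802). Atp2b4 passed the adjusted p in the later interval but stayed under the fold threshold (0.98 ± 0.21, DESeq2 adjusted p = 1.21e-05). Cxxc5 was called in neither interval (0.65 ± 0.43 and -0.43 ± 0.41, DESeq2 adjusted p = 0.202 and 0.407).

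**Figure D2:**
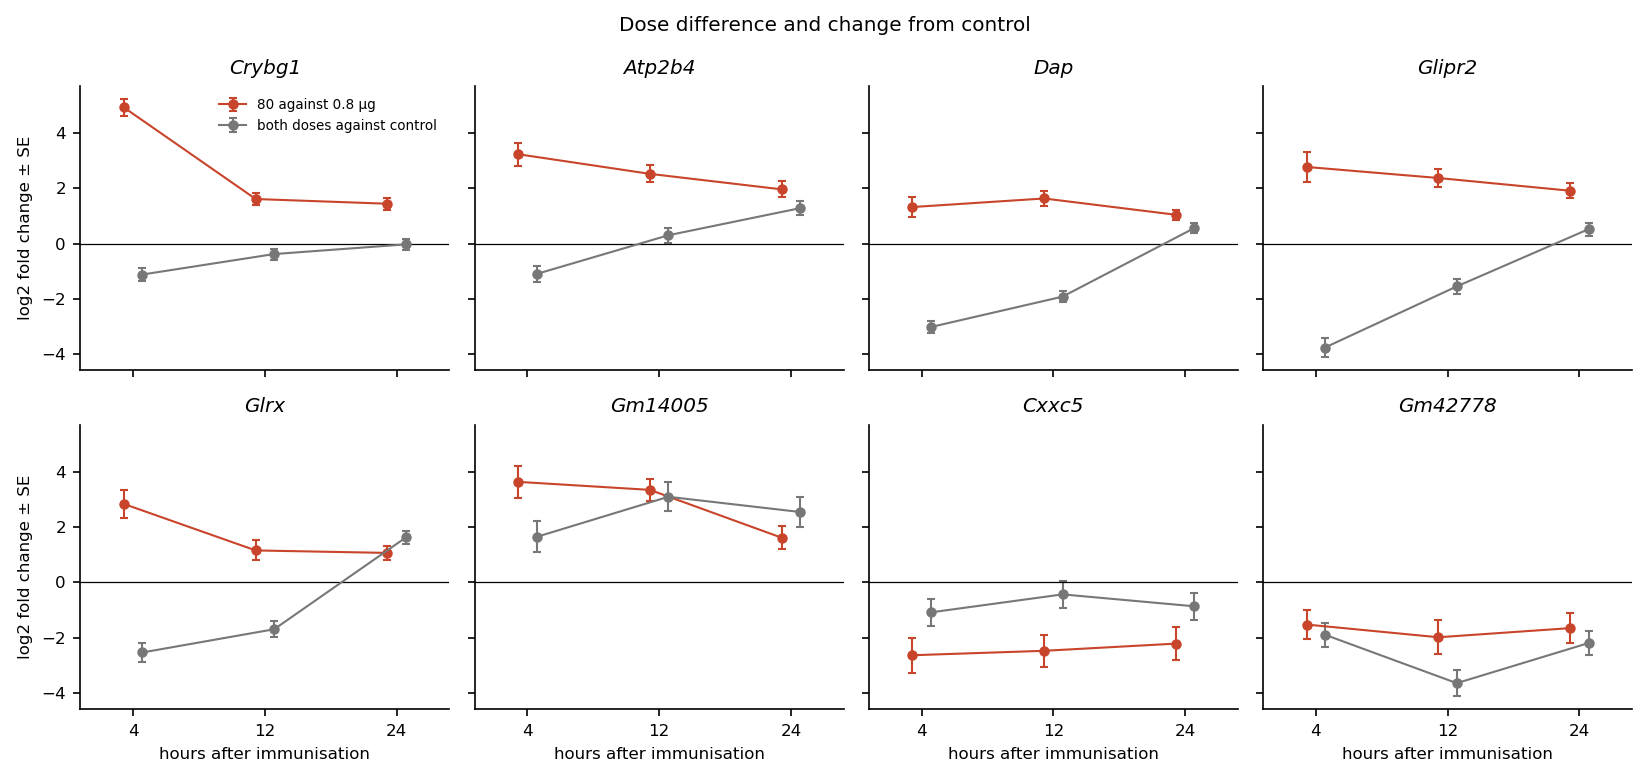
Shrunken log2 fold change ± SE at 4, 12 and 24 h for 80 µg against 0.8 µg (red, the difference that chose the genes) and for both doses against the control group (grey). For both doses against the control, Dap, Glipr2 and Glrx had values below 0 at 4 h and 12 h and above 0 at 24 h, where Glrx was called and Dap and Glipr2 were not, and the Cxxc5 and Gm42778 values were below 0 throughout.

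Markers of other cells were examined beside these changes. The summed level of 5 B cell genes was 372 to 386 CPM in the control libraries, 28.7 to 78 CPM in the libraries at 4 h and 12 h, and 275 to 396 CPM at 24 h, and so moved in the same sense as Dap, Glipr2 and Glrx. Most of that sum came from Ighm, at 1150 ± 47.6 normalised counts (SD, n = 3) in the control group, 1020 ± 27.5 with 0.8 µg and 1480 ± 72.7 with 80 µg at 24 h. Its 24 h libraries did not overlap (990 to 1040 and 1420 to 1560) and were higher with the high dose, the direction also seen in Dap, Glipr2 and Glrx. By contrast, Cd79a was at 4.28 ± 7.42 in the control group and at 0 in every library of the 0.8 µg 4 h group and of both 24 h groups. Ms4a1, another B cell gene, was at 58 ± 26.7 in the control group and at 36.3 ± 13.2 and 12.5 ± 9.55 with 0.8 and 80 µg at 24 h, where Dap, Glipr2 and Glrx were high. None of the 5 genes was called between doses by DESeq2 or edgeR at any time, and 1, 1 and 3 of them had an unadjusted p under 0.05 at 4 h, 12 h and 24 h. The part of B cell RNA in the results was not tested. The CD4+ T cell genes followed the same course, with a summed level of 2200 to 2350 CPM in the control libraries, 695 to 1230 CPM at 4 h and 12 h, and 1890 to 2260 CPM at 24 h. Of the 6 genes, 4 were lower than in the control group at 4 h and 3 at 12 h, and 4 rose from 12 h to 24 h (DESeq2). Between doses, 3 of the 6 were lower with 80 µg at 4 h (DESeq2), among them Cd4 with means of 220 and 845 normalised counts with 80 and 0.8 µg. Of 2 CD8+ T cell genes, both were lower with 80 µg at 12 h and 1 was lower at 24 h, with summed levels of 13.1 to 51.3 CPM across all libraries, and the part of these changes in the dose differences was not tested. Of the monocyte, macrophage and neutrophil genes, Lyz2 was lower with 80 µg at 4 h (DESeq2 and edgeR), with a summed level of at most 31.2 CPM for the 6 genes of the list in any library. In this list edgeR called Itgam lower than in the control group at 4 h and 12 h, and higher at 24 h than at 12 h. These directions were also seen in Dap, Glipr2 and Glrx. DESeq2 called 1 gene of the list in each of these comparisons, in the same direction. Erythroid and platelet genes ranged from 3.46 to 155 CPM in sum, and edgeR called Hba-a1 and Hbb-bs lower with 80 µg at 24 h, whereas DESeq2 called none and 1 had an unadjusted p under 0.05. At 4 h edgeR called Hba-a1, Hbb-bs and Pf4 lower than in the control group, and DESeq2 called none. The part of these cells in the results was likewise not tested.

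Relatives and partners of the proteins were drawn from 6 lists of 94 genes, the 8 genes left out, of which 76 were measured. Between doses, 2 of 70 genes with an adjusted p were called at 4 h, both lower with 80 µg, beside 5.55% of all genes, 1 of 70 at 12 h beside 2.73%, and 1 of 69 at 24 h beside 1.46%. The median log2 differences over those tested were -0.06, 0.06 and 0.01, beside -0.02, 0.01 and 0.01 over all genes tested. For the calcium list, which holds 24 pumps, channels and calmodulins with 18 of them measured, the 2 calls were Atp2a3 at 4 h (-1.65 ± 0.21, DESeq2 adjusted p = 6.84e-14), a pump that returns calcium to the endoplasmic reticulum, and Orai2 at 12 h (1.14 ± 0.38, adjusted p = 0.0439), a subunit of store-operated calcium channels. The Orai2 call was lost in 11 of the 21 fits that left out 1 library (DESeq2 adjusted p from 0.0302 to 0.21 over the 21). Atp2b1, the most closely related plasma membrane pump, had differences of 0.15, 0.3 and 0.4 (DESeq2 adjusted p = 0.512, 0.13 and 0.0122) and was not called. Against the control group Atp2b1 fell at 12 h (-1.15 ± 0.1, DESeq2 adjusted p = 1.27e-30), when Atp2b4 had a value of 0.3 ± 0.27 (adjusted p = 0.366).

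In the list of DAP relatives and autophagy initiation, 1 of 20 genes with an adjusted p was called between doses at 24 h and none at 4 h or 12 h, where edgeR also called none and 2 and 4 genes had an unadjusted p under 0.05. The called gene was Dapl1, the nearest relative of Dap (1.56 ± 0.29, DESeq2 adjusted p = 1.55e-05). At 4 h the dose difference of Dapl1 was -0.76 ± 0.38 (DESeq2 adjusted p = 0.221), opposite in sign to Dap. At 12 h it was 0.45 ± 0.33 (DESeq2 adjusted p = 0.566). Against the control group Dapl1 fell by 5.33 at 4 h (SE 0.28, DESeq2 adjusted p = 2.34e-77) and rose from 12 h to 24 h (3.9 ± 0.22, adjusted p = 6.43e-67), the directions also seen in Dap. Becn1, which encodes Beclin 1, had dose differences of -0.03, -0.07 and 0.1 (DESeq2 adjusted p = 0.959, 0.888 and 0.83). Across this list 8 of 20 genes fell and 2 rose against the control at 4 h, beside 25.6% and 17.5% of all genes, and 8 rose and 1 fell from 12 h to 24 h, beside 18.5% and 10.2%.

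In the CAP superfamily list, 2 of 13 genes were measured. Glipr1, a relative of Glipr2, was lower with 80 µg at 4 h (-2.11 ± 0.44, DESeq2 adjusted p = 6.67e-05), opposite to Glipr2, and had values of -0.63 and 0.26 at 12 h and 24 h (adjusted p = 0.181 and 0.666). In its response to antigen Glipr1 fell at 4 h (-4.35 ± 0.28, DESeq2 adjusted p = 3.89e-49) and rose from 12 h to 24 h (2.01 ± 0.18, adjusted p = 3.96e-28), as Glipr2 did. Of the 2 other crystallin domain genes, Crybg3 was too low to receive an adjusted p between doses, with differences of 1.06 ± 0.98, -0.53 ± 0.99 and 1.58 ± 0.92 (SE). Crybg2 had differences of -0.11 ± 0.58, -0.37 ± 0.59 and -0.69 ± 0.62 (DESeq2 adjusted p = 0.964, 0.848 and 0.672), opposite in sign to Crybg1 and not called. Against the control group Crybg2 was lower at 24 h (-1.23 ± 0.51, DESeq2 adjusted p = 0.0404).

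None of the 22 glutaredoxin and thioredoxin system genes was called between doses by DESeq2, with 4, 1 and 3 of them at an unadjusted p under 0.05 in order of time, and their median differences were 0.01, 0.06 and 0. With edgeR 2 of them, Srxn1 and Txnrd1, were higher with 80 µg at 4 h and none was called later. Against the control group 7 of 22 rose and 1 fell at 4 h, beside 17.5% and 25.6% of all genes, 12 rose and 1 fell at 12 h, beside 17.1% and 21%, and 7 rose and 2 fell at 24 h, beside 11.7% and 7.14%. Glrx3, a glutaredoxin that carries iron-sulfur clusters, rose at 4 h (2.38 ± 0.14, DESeq2 adjusted p = 4.01e-63), when Glrx fell. From 12 h to 24 h Glrx3 fell by 1.01 (SE 0.1, DESeq2 adjusted p = 4.9e-24), when Glrx rose, a change that was under the fold threshold in 5 of the 21 fits without 1 library. None of the 11 measured CXXC zinc finger genes was called between doses by DESeq2 or edgeR, with 5, 3 and 2 at an unadjusted p under 0.05, and Tet2, a DNA dioxygenase counted in that list as a relative of Tet1 although its protein has no CXXC domain, had differences of 0.18, -0.34 and -0.06 (DESeq2 adjusted p = 0.59, 0.295 and 0.929).

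**Figure D3:**
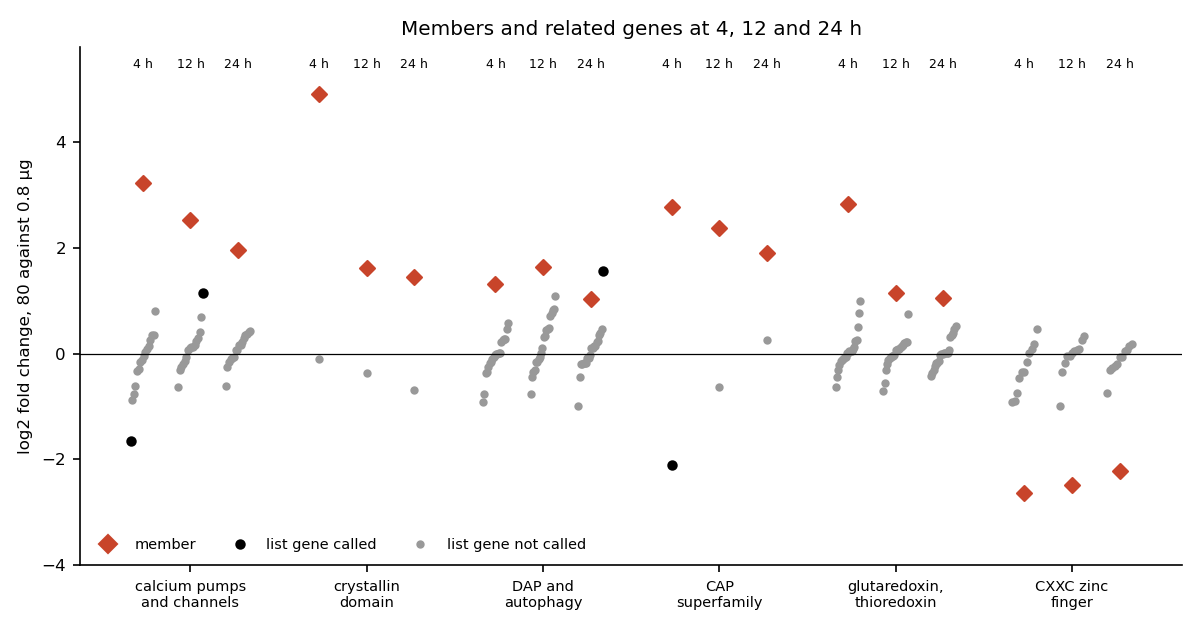
Shrunken log2 fold change of 80 µg against 0.8 µg at 4, 12 and 24 h for 6 of the chosen genes (red diamonds) and for the genes of the list each belongs with (grey, or black where called). In all, 4 list genes were called across the 3 times, namely Atp2a3 and Glipr1 at 4 h, Orai2 at 12 h and Dapl1 at 24 h.

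Genes within 200 kb of the 8 genes were examined to see whether the dose difference extended along the chromosome. Of 42 measured neighbours, 3 were called at 4 h, 2 at 12 h and 1 at 24 h, each time beside the 5.55%, 2.73% and 1.46% of all genes, with 28, 28 and 27 neighbours tested. Bcl2l11, which lies 15772 bases from Gm14005, was at 2820, 2850 and 2520 normalised counts with 0.8 µg at 4 h and at 1710, 1450 and 1600 with 80 µg. In the control group it was at 325, 291 and 291. It was therefore above the controls with either dose at 4 h (both doses against control 2.77 ± 0.13, DESeq2 adjusted p = 1.83e-103). At 24 h Bcl2l11 was at 470, 392 and 481 with 0.8 µg and at 244, 216 and 200 with 80 µg, on opposite sides of the controls. The dose differences for Bcl2l11 were -0.78 ± 0.14 at 4 h (DESeq2 adjusted p = 3.56e-07, under the fold threshold), -0.34 ± 0.15 at 12 h (adjusted p = 0.174) and -1.02 ± 0.15 at 24 h (adjusted p = 1.89e-09, called). The 24 h value dropped under the fold threshold in 3 of the 21 fits without 1 library (0.8 µg 24 h replicate 1, 0.8 µg 24 h replicate 3 and 80 µg 24 h replicate 3). Gm14005 was higher with 80 µg at each of these times, and its highest group was 80 µg at 12 h. At 12 h the Bcl2l11 libraries overlapped the controls with 80 µg (348, 381 and 301) and with 0.8 µg (299 to 505). Whether Gm14005 acts on Bcl2l11 in these cells was not tested.

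**Figure D4:**
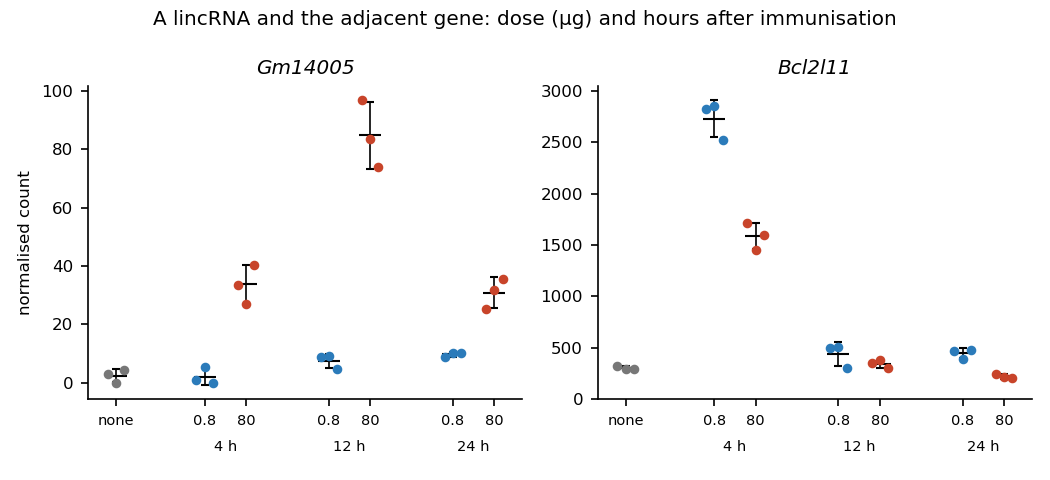
Normalised counts per library (points; grey control, blue 0.8 µg, red 80 µg) with group mean and SD (n = 3) for Gm14005 and for Bcl2l11, against dose in µg and hours after immunisation. Gm14005 was above the low dose with 80 µg at each time and highest at 12 h, whereas Bcl2l11 was highest at 4 h and lower with 80 µg than with 0.8 µg at 4 h and 24 h.

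The other neighbours called between doses belonged to 4 of the 8 loci. Ttc28, in which Gm42778 lies, was at 68.6, 59.4 and 34 normalised counts with 0.8 µg and at 17.4, 16.9 and 7.78 with 80 µg at 12 h (-1.86 ± 0.34, DESeq2 adjusted p = 4.1e-06). At 4 h Ttc28 had a difference of -0.17 ± 0.3 (DESeq2 adjusted p = 0.843), a time at which Gm42778 was at -1.53, and at 24 h one of -0.95 ± 0.29 (adjusted p = 0.0309, under the fold threshold), when Gm42778 was at -1.66. Against the control group Ttc28 fell at 4 h, 12 h and 24 h (-1.88, -3.11 and -1.9, DESeq2 adjusted p = 8.4e-14, 4.05e-32 and 9.06e-14), and so did Gm42778. Gm37368, which lies inside Atp2b4 on the same strand, was called higher with 80 µg at 4 h (DESeq2 adjusted p = 0.00403) from few counts, being at 0 in all 3 low dose libraries and at 3.47 to 11.1 normalised counts with the high dose, and reads of the 2 genes may not be separable. Lax1, an adaptor that restrains lymphocyte signalling and lies 9349 bases from Atp2b4, was lower with 80 µg at 12 h (-1.17 ± 0.37, DESeq2 adjusted p = 0.0341). Ell2, an elongation factor 67504 bases from Glrx, was higher with 80 µg at 4 h (3.23 ± 0.61, DESeq2 adjusted p = 8.61e-06), and Acoxl, 54446 bases from Gm14005, was lower at 4 h (-1.54 ± 0.54, adjusted p = 0.0475). Over the 21 fits that left out 1 library, the call was lost in 16 for Acoxl, in 5 for Lax1 and in 1 for Gm37368 (without 80 µg 4 h replicate 1).

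The 8 genes were last set beside each other and beside the genes most like them over the 21 samples, by Pearson's r of the deposited rlog values, as a description across samples that share dose and time. Dap and Glipr2 had r = 0.95, Dap and Glrx 0.92 and Glipr2 and Glrx 0.88, whereas Gm14005 and Gm42778 had r = -0.81. With the group means removed, r over the 28 pairs ranged from -0.43 to 0.57 with a median of 0.22, and was 0.33 for Dap and Glipr2 and -0.11 for Dap and Glrx. Among 8762 genes, Ctsa was the gene most like both Dap (r = 0.974) and Glipr2 (r = 0.961), and the next were Vim (0.972) and Cd47 (0.967) for Dap and Dap itself (0.951) and Cyth4 (0.929) for Glipr2. Glrx was most like Zbp1 (0.964), Trim30a (0.953) and Stat2 (0.951). Gm14005 was most like Icos (0.954), Il21 (0.895) and Maf (0.885), and Atp2b4 most like Neb (0.928), Cemip2 (0.896) and Klhl6 (0.896). The values for Crybg1 were 0.901 for Trib2, 0.882 for Socs3 and 0.856 for Jaml. Gm42778 was most like Herc2 (0.914), Klk8 (0.907) and Rnf169 (0.882), while the values for Cxxc5, the gene with the fewest counts in this comparison, were lower at 0.775 for Cd226 and 0.756 for Rasal1.

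The call between doses at all 3 times did not rest equally on each library. When each of the 21 libraries was left out in turn, Atp2b4, Crybg1, Glipr2 and Gm14005 stayed called at all 3 times in all 21 fits, Dap in 19, Cxxc5 in 17, Glrx in 14 and Gm42778 in 6. For Cxxc5 the 4 losses were at 24 h, where the difference was -2.28 to -1.68 and DESeq2 gave the gene no adjusted p. In each of those fits the direction was kept, and the log2 differences ranged from 0.83 to 1.64 for Dap at 4 h, from 0.94 to 1.42 for Glrx at 12 h and from -1.88 to -1.1 for Gm42778 at 4 h. Without 0.8 µg 24 h replicate 3, which had the highest Cxxc5 and Gm42778 values of its group, 5 of the 8 genes remained called at all 3 times.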

How the data were processed

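Per the study's methods, the authors merged reads over sequencing lanes, trimmed them with Bbduk, aligned them to GRCm38 (mm10) with STAR 2.5.2a and counted them per Ensembl gene with HTSeq. Strand setting, annotation release and handling of molecular identifiers are not given in the sources used here. The deposited count table holds raw counts for 47643 genes, and the deposited log2 values are the authors' rlog transformation for 15249 genes, used here for likeness only. Group, dose and time came from the labels, and replicates are separate mice. Genes with at least 10 counts in all were fitted with DESeq2 1.42.0 in R 4.3.3, with a coefficient per group over 21 libraries, Wald tests, Benjamini-Hochberg adjustment over all genes and normal-prior shrinkage. A gene was called at an adjusted p under 0.05 and an absolute shrunken log2 fold change above 1, following the study. The procedure was tested on simulated data. Alternatives were edgeR 4.0.16 (quasi-likelihood, TMM), no filter, no shrinkage, a replicate block, each library left out and, for likeness, log2 CPM.

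The 8 genes and all lists were chosen with earlier results of these data known. Named genes are the 8 genes, the 3 most like each (among genes averaging 20 or more normalised counts), list genes called between doses (up to 3 per list and time), Bcl2l11, Atp2b1, Crybg3, Becn1, Glipr1, Glrx3 and Tet2, and up to 5 called neighbours. Rtn4ip1 was added for its overlap, and Crybg2 as the other measured gene of the crystallin list. For Cxxc5, 1 of the 3 most like genes is not reported here. Gene positions were read from GENCODE vM21 (GRCm38, first base 1). Library totals limit the low values: 3 counts correspond to more normalised counts in a shallow library than in a deep one. Sequences shown come from RefSeq, and none is printed for Cxxc5, Gm42778 or the proteins.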

Additional observations from a re-analysis of the deposited data

Results flagged for a closer look

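Dose groups lay on opposite sides of all controls for 2 of the genes. For Crybg1 at 4 h the log2 ratio of the group mean to the control mean was 1.35 with 80 µg and -3.76 with 0.8 µg, a gap of 5.11, and at 24 h it was 0.7 and -0.76, a gap of 1.46. For Atp2b4 at 12 h the values were 1.61 and -1.01, a gap of 2.62. Of all 15300 genes, 0.248% at 4 h, 0.118% at 12 h and 0.294% at 24 h had every 80 µg library above and every 0.8 µg library below all controls. As the dose difference chose these genes, nothing is read from these shares and the gaps were not tested.

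Times lay on opposite sides of all controls for 3 genes. From 4 h to 24 h with 80 µg, Dap went from -2.37 to 1.09, a gap of 3.46, Glipr2 from -2.48 to 1.49, a gap of 3.97, and Glrx from -1.15 to 2.16, a gap of 3.31. With 0.8 µg Glrx went from -4.4 to 1.09, a gap of 5.49. The share of all genes with every library below all controls at 4 h and above them at 24 h was 5.16% with 80 µg and 3.94% with 0.8 µg. The difference between times within 1 dose was not tested, and time and sorting gate cannot be told apart.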

How the results depend on the processing

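Of the 8 genes' contrasts, 1 changed direction: Crybg1 at 24 h against the control, not called at -0.03, ranged from -0.08 to 0.08 with 1 library left out, being 0.08 without control replicate 3 and 0.01 without 80 µg 24 h replicate 2, and not called in either. Of their values under alternatives that leave out no library, 252 kept their side of the threshold (for dose differences, stayed within the spread) and 4 did not. With edgeR, 4 list genes were called between doses at 4 h in place of 2. With the replicate block, 0 list genes were called at 12 h in place of 1, the number of the 8 genes called at all 3 times was 7 in place of 8 (Gm42778 was lost), and Cxxc5 at 4 h was no longer called against the control (-1.08, DESeq2 adjusted p = 0.0558). Whether replicate numbers pair these samples cannot be told from the weak correlations between them. Same-numbered samples of the 2 doses had correlations of -0.06 to 0.16 over 9 pairs, 3 of them above 0.1. Differently numbered samples ranged from -0.21 to 0.13. Of 9 low dose samples, 4 correlated best with their own number, counting a tie at 0.03. Leaving out each library in turn gave 2 to 4 list genes at 4 h (4 without 0.8 µg 4 h replicate 2), 0 to 2 at 12 h (2 without 80 µg 12 h replicate 3) and 5 to 8 of the 8 genes at all 3 times (5 without 0.8 µg 24 h replicate 3). Between doses, 1 to 3 neighbours were called at 4 h, 1 to 2 at 12 h and 0 to 2 at 24 h. Atp2b4 at 4 h dropped under the fold threshold without control replicate 1 (-0.89) and in 3 other such fits, Crybg1 in 2 (-0.97 and -1.0), and Dap from 4 h to 12 h in 1 (0.85, without 0.8 µg 4 h replicate 3). Glrx from 4 h to 12 h passed it with edgeR (1.01) and without shrinkage (1.04), and Atp2b4 from 12 h to 24 h did so without shrinkage (1.0) and in 5 fits that left out 1 library (1.02 to 1.11). The cause was not tested. On log2 CPM, 18 of the 24 most alike genes were the same. Over all genes, edgeR called 6379, 5800 and 2748 genes against the control at 4 h, 12 h and 24 h, beside 5947, 5381 and 2492. The median log2 change over all genes was -0.16 at 4 h and -0.12 at 12 h against the control with both tools, and 0.13 from 12 h to 24 h with DESeq2 beside 0.12 with edgeR. Depth limits Glipr2, Glrx, Cxxc5, Gm14005 and Gm42778, each of which had a group with 10 or fewer raw counts over its 3 libraries.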

Other observations

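Over the 6 lists together, 30 of 74 genes with an adjusted p were called against the control at 4 h, beside 43.1% of all genes, 40 of 74 at 12 h, beside 38.1%, and 18 of 73 at 24 h, beside 18.8%. Of the calcium pumps and channels, 5 of 17 genes fell and 2 rose at 4 h, beside 25.6% and 17.5% of all genes, 7 fell and 1 rose at 12 h, beside 21% and 17.1%, and 1 fell and 1 rose at 24 h, beside 7.14% and 11.7%. The genes given here were chosen after their values were seen. Orai1, a subunit of store-operated calcium channels, rose at 4 h (log2 change of 2.61 ± 0.15, SE, DESeq2 adjusted p = 5.14e-62), whereas Stim1, its activator in the endoplasmic reticulum, fell (-3.34 ± 0.2, adjusted p = 7.2e-62). Among the redox genes Txnip, an inhibitor of thioredoxin, fell by 6.55 at 4 h (SE 0.45, DESeq2 adjusted p = 1.61e-45). Among the CXXC zinc finger genes, Kdm2b, a histone demethylase, rose at 4 h (3.85 ± 0.14, DESeq2 adjusted p = 4.04e-154) and Tet1, a DNA dioxygenase, fell (-5.2 ± 0.38, adjusted p = 5.08e-36), while Dnmt1, the maintenance DNA methyltransferase, fell at 4 h (-1.4 ± 0.15, adjusted p = 2.98e-19) and was higher than in the control at 24 h (2.1 ± 0.14, adjusted p = 6.01e-49). None of these genes was called between doses at 4 h, 12 h or 24 h by DESeq2, though Kdm2b had differences of -0.92 ± 0.14 at 4 h and -0.99 ± 0.15 at 12 h (adjusted p = 1.13e-09 and 5.8e-09), just under the fold threshold, and Dnmt1 one of -0.89 ± 0.19 at 4 h (adjusted p = 0.000102).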
